A study of Homo sapiens with 12 samples.

Results

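The genes described here encode the proteins of the heterogeneous nuclear ribonucleoproteins (hnRNPs), of the small nuclear ribonucleoproteins (snRNPs) and of the spliceosome around them. They were taken by gene name, as every name of the HNRNP, SNRP, SF3A, SF3B, PRPF and LSM series with at least 1 transcript that matched the reference (class code =) or shared part of its splice sites with it (class code j). Of 223 names that fitted, 155 with the pseudogene ending P plus a digit were left out. The remaining 68 genes, of 56537 names with such transcripts in the table, were 22 hnRNP, 12 SNRP, 9 SF3, 13 PRPF and 12 LSM genes. They held 992 transcripts, 744 of class code = and 248 of class code j. LSM8 had no row under that name and was not analysed here. The cells were HCT116, an established human colorectal cancer line. The 0 h group was kept at 21% oxygen, and the others were moved to 1% O2 for 1, 2 or 24 h, starting 24 h after plating. Each of the 4 groups had 3 libraries of polyadenylated RNA, stated to be biological replicates, and no genetic change or added agent is named for any group. The sources used here do not give the age of the 0 h cultures at harvest, so at 24 h the effects of low oxygen and of longer culture cannot be told apart.

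Introns are removed from pre-mRNA by the spliceosome, which is built on each intron from the U1, U2, U4, U5 and U6 snRNPs. U1, U2, U4 and U5 RNA each carry a ring of Sm proteins, which SNRP genes encode, and U6 RNA carries a related ring of LSM proteins. SF3A and SF3B proteins are parts of the U2 snRNP and hold it on the branch point, PRPF proteins belong mostly to the U4/U6.U5 tri-snRNP and to the complexes that activate it, and hnRNPs coat the nascent transcript and steer the choice of splice sites. Many of these genes are also known to make transcripts that are not translated in full, through a retained intron or an exon that sends the mRNA to nonsense-mediated decay.

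Abundance was given per transcript as FPKM, a fragment count scaled to transcript length and to the mapped fragments of the library, and was summed here per gene. Read counts per gene and the depth of each library were not analysed here, and the spread between 3 libraries is the measure of precision. Between 57.0% and 87.6% of the summed FPKM of a library lay in transcripts under 300 bases. All 5 hypoxia-response genes checked (CA9, NDRG1, VEGFA, ANKRD37 and PDK1) rose at 24 h, by 1.90 to 5.45 on the log2 scale. The epithelial keratins KRT8, KRT18 and KRT19 had means between 489 and 988 FPKM at 0 h. Of 6 epithelial markers 3 rose at 24 h, CDH1 by 1.76, KRT19 by 0.99 and CLDN7 by 0.63 on the log2 scale, and 0 fell, and their part in the results on members was not tested. PECAM1 of endothelium was listed at 0 throughout and PTPRC of leukocytes in all but 1 library of 1 h, and of 2 tested markers of other cell types 1, COL1A1, rose from 1.92 ± 0.206 to 6.87 ± 1.67 FPKM (SD, n = 3 each). In bulk RNA a lower level may be fewer expressing cells or less RNA per cell, and these cannot be told apart.

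At 24 h in 1% O2 the transcripts of the splicing proteins were lower in most members. The summed FPKM of all 68 genes was 12837, 12292 and 12131 in the libraries of 0 h, 12602, 12825 and 12224 at 1 h and 12669, 12428 and 12311 at 2 h. At 24 h it was 7823, 8014 and 7435, which is 62.5% of the mean at 0 h, so the 24 h libraries stood apart from the other 9. Of 67 genes tested with limma at 24 h against 0 h, 44 fell and 1 rose at an adjusted p under 0.01, beside 23.2% lower and 18.3% higher among all 16680 genes tested. A total of 16 fell by more than 2-fold and 0 rose by as much, beside 9.51% and 8.76% of all genes. The median log2 fold change was -0.62 for the members and -0.05 for all genes tested. With TPM over all transcripts, a scaling that the short transcripts enter, these medians were -1.44 and -0.78 and 38 members fell with 0 higher, beside 28.9% lower and 1.73% higher of all genes. In 55 members every 24 h library lay below every 0 h library, and in 3 (HNRNPUL2, LSM11 and LSM14A) every one lay above, beside 32.8% and 27.6% of all genes.

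These are highly expressed genes, with a median of 103.6 FPKM at 0 h over those tested. Among genes with a mean of at least 20 FPKM over the 12 libraries, 43 of 63 members (68.3%) fell at 24 h, against 38.0% of 5106 other genes. SNRPN, the neuronal relative of SNRPB, was listed at 0 in 10 libraries, at 0.0359 FPKM in 1 library of 0 h and at 0.398 in 1 of 2 h, and was the 1 member not tested.

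**Figure D1:**
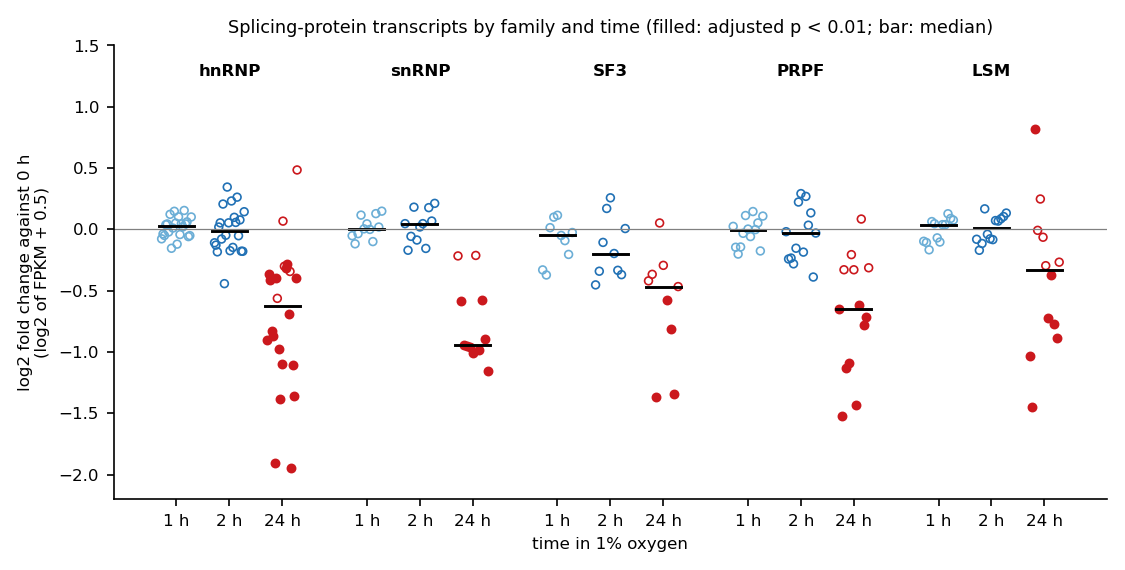
Log2 fold change against 0 h on the log2(FPKM + 0.5) scale (vertical axis) of each tested member, by family and by hours in 1% O2 (horizontal axis); each circle is a gene, filled where the adjusted p was under 0.01, and the black bar is the family median. At 1 and 2 h no circle is filled, whereas at 24 h the medians lie at -0.62 (hnRNP), -0.94 (snRNP), -0.47 (SF3), -0.65 (PRPF) and -0.33 (LSM).

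Of the 22 hnRNP genes 17 fell at 24 h, 0 rose and 5 were not called, with 6 lower by more than 2-fold. Of such calls 12 were made with median-of-ratios scaling, 11 in a fit of the 6 libraries alone and 12 without 0 h replicate 1 or without 0 h replicate 2. The largest fall was in HNRNPM, a nuclear RNA-binding protein that regulates exon inclusion. HNRNPM stood at 456, 410.3 and 372 FPKM at 0 h and at 129, 94.98 and 98.3 FPKM at 24 h, while the 6 libraries of 1 and 2 h lay between 381 and 436. The groups of 0 h and 24 h did not overlap, and the log2 fold change was -1.95 (SE 0.12, adjusted p = 2.7e-07). HNRNPAB, an RNA- and single-strand-binding hnRNP, fell from 320.3 ± 34.7 to 85.7 ± 16.3 FPKM (log2 fold change -1.91, SE 0.16, adjusted p = 2.1e-06). HNRNPU, the scaffold-attachment hnRNP that also binds chromatin, had 397, 408 and 435 FPKM at 0 h and 165, 139 and 180.3 FPKM at 24 h (log2 fold change -1.36, SE 0.11).

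The replicates were closest in HNRNPF, a G-tract binding protein, with 254.0, 254.4 and 253.6 FPKM at 0 h against 118.2, 118.8 and 117.8 FPKM at 24 h (log2 fold change -1.10, SE 0.07). HNRNPR (-1.11) and HNRNPDL (-1.38) made up the 6 with a change over 2-fold. HNRNPDL, which binds AU-rich RNA, stood at 287 ± 50.1 FPKM at 0 h and 111 ± 27.9 at 24 h, with values from 328 to 417 at 2 h.

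HNRNPA2B1, a reader of exon and intron sequence next to splice sites, was the most abundant member. It had 1552, 1493 and 1544 FPKM at 0 h and 917, 858 and 809 FPKM at 24 h, a log2 fold change of -0.83 (SE 0.08, adjusted p = 8.1e-06). Of its close relatives, HNRNPA3 fell by 0.87, HNRNPA0 by 0.91 and HNRNPA1 by 0.36 on the log2 scale, a call that was lost with a replicate block (adjusted p = 0.011). HNRNPA1 and HNRNPA1L2 are near-identical copies, as are HNRNPC and HNRNPCL1, so reads may have been divided between them and their separate values are uncertain. HNRNPC, which binds uridine tracts, fell by 0.40 (adjusted p = 0.0070) and HNRNPK, which binds C-rich RNA, by 0.28 (adjusted p = 0.0079). HNRNPL, a binder of CA repeats, fell by 0.69 from 355.5 ± 22.4 to 221 ± 8.47 FPKM, and HNRNPD, which binds AU-rich elements, by 0.98 from 485 ± 22.9 to 249 ± 51.7 FPKM.

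HNRNPH1, a relative of HNRNPF, was not called. Its 0 h libraries had 357, 383 and 455 FPKM and its 24 h libraries 433, 399 and 414, which overlap. Its log2 fold change was 0.07 with a 95% interval of -0.24 to 0.37. With TPM over all transcripts it was -0.80, and with TPM over those of at least 300 bases -0.05, where the medians of other genes were -0.78 and -0.13. HNRNPUL2, a relative of HNRNPU, had 26.9, 25.4 and 29.2 FPKM at 0 h and 30.1, 37.3 and 49.5 at 24 h, which did not overlap, and did not pass the threshold (log2 fold change 0.48, adjusted p = 0.021; 0.0042 with a replicate block).

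The SNRP genes had the lowest family median, -0.94, with 9 of 11 tested lower and 0 higher. Of the 7 Sm ring genes 6 fell. SNRPG fell from 220.2, 187 and 174 FPKM at 0 h to 96.7, 115 and 57.5 at 24 h (log2 fold change -1.16, SE 0.20, adjusted p = 0.00037), and SNRPD1 from 312, 289.8 and 282 to 145, 158 and 137 FPKM (-1.01, SE 0.11). SNRPD3 (-0.99), SNRPB (-0.94), SNRPF (-0.89) and SNRPE (-0.57) fell as well. SNRPB, which gives the SmB protein, stood at 345, 340.0 and 329.8 FPKM at 0 h and at 224, 166 and 147 FPKM at 24 h.

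The exception in the ring was SNRPD2, with 569, 538 and 507 FPKM at 0 h and 541, 532 and 346 FPKM at 24 h. Its log2 fold change of -0.21 (adjusted p = 0.24) rested on 24 h replicate 3, and without that library the adjusted p was 0.98 with the groups overlapping. Of the U1 proteins SNRPC fell by 0.96 on the log2 scale, and SNRPA stood at 77.7 ± 6.15 and 66.6 ± 0.946 FPKM, not called (adjusted p = 0.077). Both U2 proteins fell, SNRPB2 by 0.95 and SNRPA1 by 0.58. Most of the FPKM of SNRPF (97.4%) and SNRPD1 (77.8%) lay in models of class code j, which share only part of the reference structure.

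In the SF3 family, the U2 snRNP parts, 4 of 9 genes fell, 0 rose and 5 were not called. Beside them, 38.0% of other genes of at least 20 FPKM fell and 15.6% rose. SF3A3, a subunit of SF3a, stood at 143, 134 and 141 FPKM at 0 h and at 55.3, 48.9 and 57.2 FPKM at 24 h (log2 fold change -1.37, SE 0.09, adjusted p = 4.3e-07). SF3B4, which contacts RNA near the branch point, fell from 88.9, 86.1 and 79.9 FPKM to 38.5, 29.7 and 32.0 FPKM (-1.34, SE 0.11, adjusted p = 1.8e-06). SF3B3 fell by 0.82 and SF3B2 by 0.58. SF3B5, with -0.47, was not called (adjusted p = 0.014), but its call depended on the setting and was made with a replicate block (0.0017). SF3B1, the largest subunit and the one that surrounds the branch point, was not called, with 123, 139.5 and 132 FPKM at 0 h and 119, 154 and 137 FPKM at 24 h. Its log2 fold change was 0.05 with a 95% interval of -0.17 to 0.27, and -0.81 and -0.04 under the TPM scalings that shift the other genes to medians of -0.78 and -0.13. The subunits of this particle thus had values from -1.37 to 0.05. SF3B14 in this table is an older name of SF3B6, the branch-point protein, and had a value of -0.29 that was not called (adjusted p = 0.035).

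Of the 13 PRPF genes 8 fell, 0 rose and 5 were not called. PRPF19, the ubiquitin ligase that gives its name to the complex which stabilises the activated spliceosome, had 157, 150.2 and 128 FPKM at 0 h and 55.3, 46.1 and 48.7 FPKM at 24 h (log2 fold change -1.53, SE 0.13, adjusted p = 2.4e-06). Of 5 tri-snRNP proteins 3 fell. PRPF4 fell from 63.9, 61.1 and 61.0 FPKM to 21.3, 22.7 and 24.1 FPKM (-1.43, SE 0.09, adjusted p = 3.8e-07). PRPF31, which bridges the U4 and U5 particles, fell from 70.6, 70.5 and 65.4 FPKM to 43.2, 27.4 and 25.3 FPKM (-1.13), with 24 h replicate 1 above the other two, and PRPF6 fell by 0.72.

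PRPF8, the scaffold of the catalytic core, had 66.6, 68.5 and 73.9 FPKM at 0 h and 45.0, 54.6 and 71.1 at 24 h. The groups overlapped, and the log2 fold change of -0.31 was not called (adjusted p = 0.089, 95% interval -0.63 to 0.01). PRPF3 had a value of -0.33 (adjusted p = 0.017). PRPF38A, which enters before activation, fell by 1.09 from 33.3 ± 0.842 to 15.4 ± 1.55 FPKM. PRPF4B, a kinase that acts on tri-snRNP proteins, fell by 0.78. PRPF39, which joins the U1 snRNP, stood at 21.7 ± 1.58 and 17.2 ± 1.95 FPKM and was not called (log2 fold change -0.33, adjusted p = 0.16).

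The LSM genes had the least negative family median, -0.33, with 6 of 12 lower and 1 higher, beside 23.2% and 18.3% of all genes. Of the 6 proteins of the U6 ring with a row, 4 fell: LSM6 by 0.89, LSM5 by 0.77, LSM3 by 0.73 and LSM4 by 0.37 on the log2 scale. The call of LSM4 was lost with median-of-ratios scaling (adjusted p = 0.015), in the fit of the 6 libraries (0.026) and on leaving out any library of 0 h or replicate 2 or 3 of 24 h (0.018 to 0.031). LSM2 (-0.30, adjusted p = 0.056) and LSM7 (-0.27, adjusted p = 0.10) were not called. LSM1, which replaces LSM8 in the cytoplasmic ring that promotes decapping, fell from 57.9, 55.6 and 52.6 FPKM to 28.1, 31.4 and 22.0 FPKM (-1.03, SE 0.14).

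LSM10 and LSM11 replace SNRPD1 and SNRPD2 in the U7 snRNP, which trims the 3′ end of histone pre-mRNA, and 1 of the pair fell and the other rose. LSM10 had 41.6, 37.7 and 35.0 FPKM at 0 h and 17.6, 14.9 and 9.61 FPKM at 24 h, a log2 fold change of -1.45 (SE 0.19, adjusted p = 5.7e-05). LSM11 had 1.24, 2.08 and 1.88 FPKM at 0 h and 2.83, 3.66 and 3.72 FPKM at 24 h, a log2 fold change of 0.82 (SE 0.19, adjusted p = 0.0033). It was not called with TPM over all transcripts (log2 fold change 0.08) or over those of at least 300 bases (adjusted p = 0.011), nor without 0 h replicate 1 (0.65, adjusted p = 0.017), 24 h replicate 2 (adjusted p = 0.014) or 24 h replicate 3 (adjusted p = 0.013). The fit of the 6 libraries of 0 h and 24 h alone did not call it either. LSM11 was the 1 member called higher at 24 h against 0 h, and the least abundant of those tested. LSM14A, a P-body protein, had 110.4 to 116 FPKM at 24 h against 93.2 to 97.04 at 0 h (log2 fold change 0.25, adjusted p = 0.015). It was called with a replicate block (adjusted p = 0.0099) and with median-of-ratios scaling (adjusted p = 0.0038). LSM12 and LSM14B had values of -0.01 and -0.06.

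**Figure D2:**
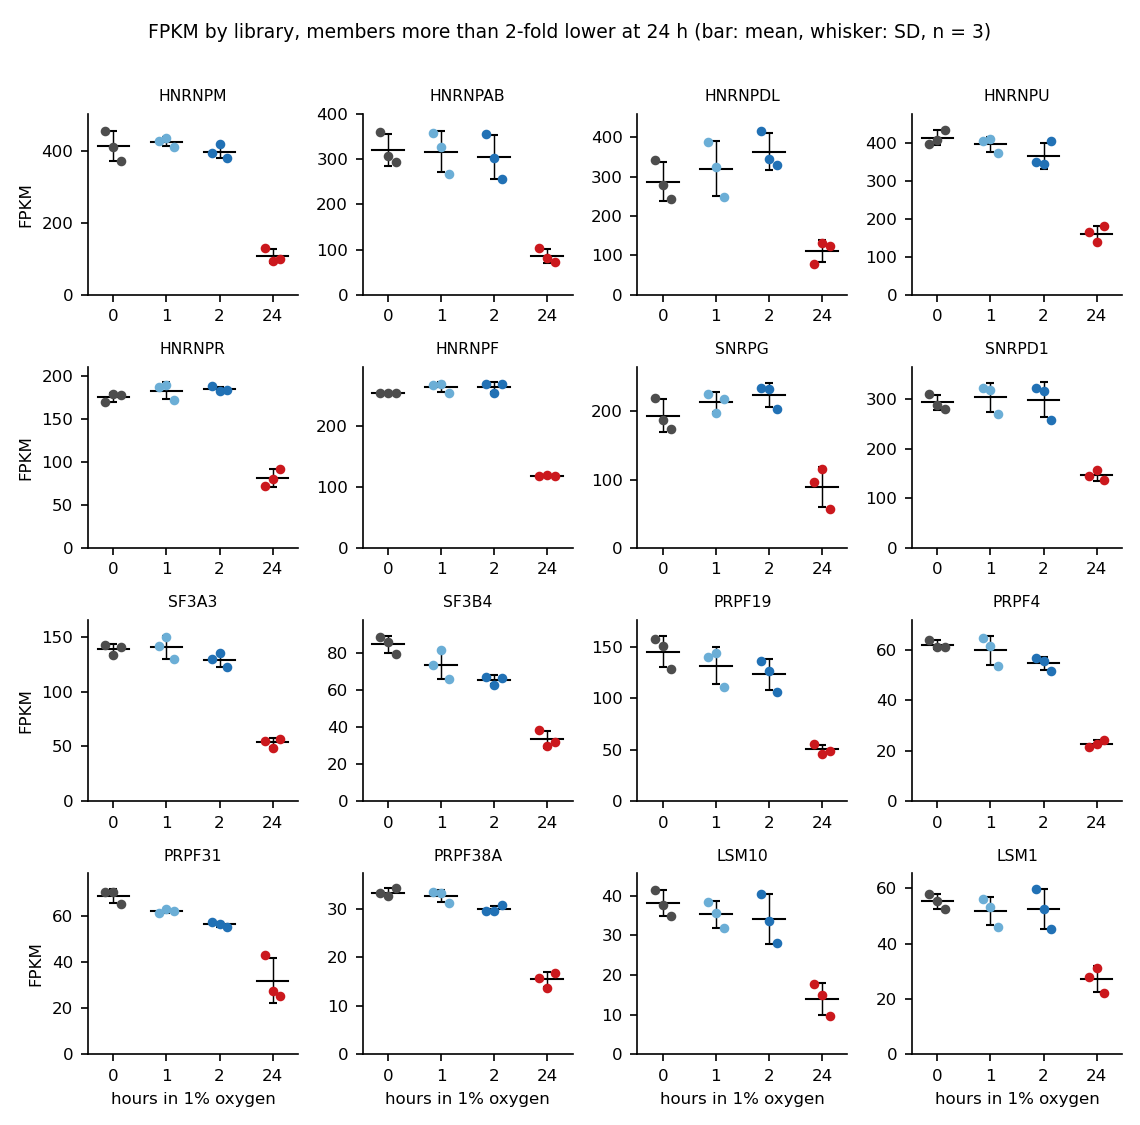
FPKM (vertical axis, from 0) in each library by hours in 1% O2 (horizontal axis) for the 16 members that fell by more than 2-fold at 24 h; points are libraries, the bar is the mean and the whisker the SD of 3. The 24 h points lie below all other points in each panel, for example 94.98 to 129 FPKM for HNRNPM against 372 to 456 at 0 h.

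**Figure D3:**
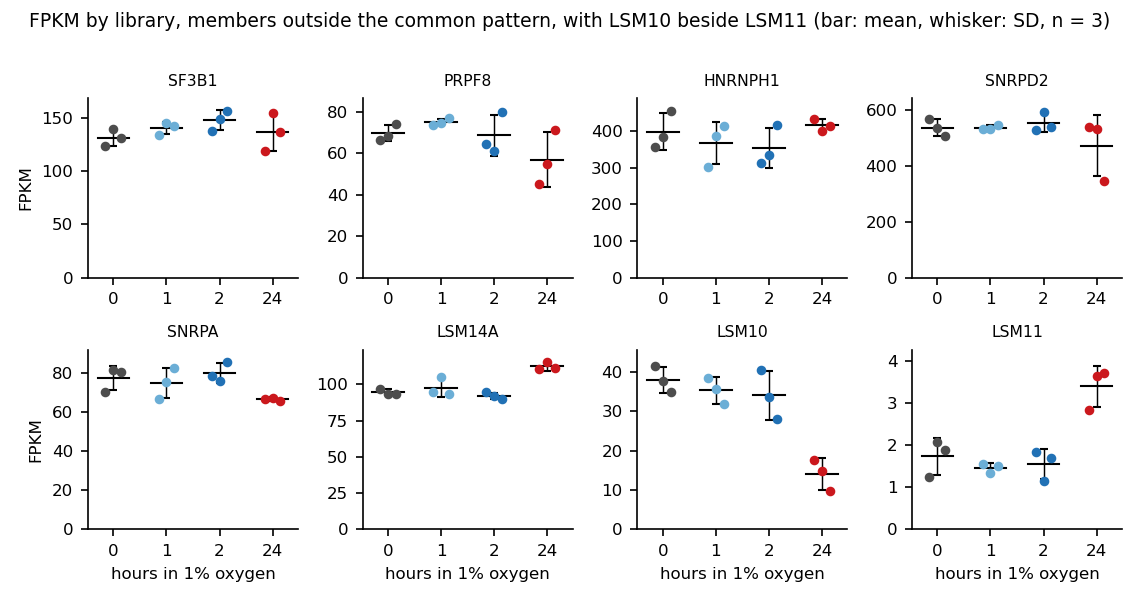
FPKM (vertical axis, from 0) in each library by hours in 1% O2 (horizontal axis) for members that were not lower at 24 h or not called, with LSM10 beside LSM11; points are libraries, the bar is the mean and the whisker the SD of 3. The 24 h libraries of SF3B1, PRPF8, HNRNPH1 and SNRPD2 overlap those of 0 h, 1 SNRPD2 library of 24 h stands at 346 FPKM, and LSM11 is higher and LSM10 lower at 24 h.

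At 1 h and at 2 h no member was called with limma, with 0% of all genes lower in both comparisons and 0.006% and 0.024% higher. Over 2-fold, 0 members were called at either time, beside 0.018% of all genes higher at 2 h. At an unadjusted p under 0.05 there were 2 members at 1 h and 9 at 2 h, beside 4.61% and 15.3% of all genes. With TPM over all transcripts 0 were called at either time, but 55 members had an unadjusted p under 0.05 at 2 h, beside 73.4% of all genes, and the member medians were -0.62 at 1 h and -1.07 at 2 h, where those of other genes were -0.56 and -0.94. The libraries did not overlap in 4 members lower and 1 higher at 1 h (7.33% and 6.36% of all genes) and in 15 lower and 8 higher at 2 h (13.1% and 12.2%). The U2 proteins SF3A1 and SF3A2 had the largest differences at 1 h. SF3A1 had 59.8, 62.1 and 54.6 FPKM at 0 h, 45.2, 49.6 and 45.3 at 1 h and 47.7, 33.7 and 48.8 at 2 h. These levels stood beside 45.2, 38.0 and 48.9 at 24 h, and no contrast passed the threshold (adjusted p = 1.00 at 1 h, 0.19 at 2 h and 0.023 at 24 h). The smallest adjusted p at 2 h was that of the tri-snRNP protein PRPF6 (log2 fold change -0.39, adjusted p = 0.11). Among members more than 2-fold lower at 24 h, PRPF31 had values of -0.14 at 1 h and -0.28 at 2 h, and SF3B4 of -0.20 and -0.37, none of them called.

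The same fit compared 24 h with 2 h, which shares the 24 h libraries with the comparison above. In it 42 members fell and 2 rose, beside 20.3% and 16.3% of all genes, and 13 fell and 0 rose by more than 2-fold, beside 7.28% and 7.44%. The 2 that rose were LSM11 (log2 fold change 0.93, adjusted p = 0.0016) and LSM14A (0.29, adjusted p = 0.0073). HNRNPM had a value of -1.89, HNRNPDL of -1.73, PRPF19 of -1.28 and SNRPB2 of -1.13. With TPM over all transcripts 0 members were called in this comparison, beside 0.599% lower and 3.82% higher of all genes. In 51 members all 24 h libraries lay below all 2 h libraries, and in 2 above (28.9% and 25.3% of all genes).

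Proteins that work beside these but carry other names were counted as well, beside 23.2% lower and 9.51% over 2-fold lower of all genes and 38.0% lower of the other genes of at least 20 FPKM. Of 52 other spliceosome genes listed, 34 fell at 24 h against 0 h and 0 rose, with a median log2 fold change of -0.48. Examples were ISY1 (-1.95), PHF5A (-1.66), a subunit of SF3b, and SNRNP40 (-1.13), a U5 protein. The U5 helicase SNRNP200 had a value of -0.04 (adjusted p = 0.76). Of 15 genes that load Sm proteins on snRNA, 11 fell, 10 of them by more than 2-fold, with a median of -1.11: WDR77 and PRMT5, which methylate Sm proteins, by 2.50 and 1.11, and GEMIN4, GEMIN5 and GEMIN6 of the SMN complex by 1.56, 1.46 and 1.64. Of 11 hnRNP-like genes outside the name rule, 6 fell and 0 rose (median -0.42), with PTBP1 at -0.42 and PCBP2 at 0.14 (adjusted p = 0.15). The medians of all 5 families were below 0 under each scaling tried, but with TPM over all transcripts that of other genes was -0.78 as well.

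Each transcript was then placed as coding or noncoding by the type of its nearest reference transcript, where noncoding means nonsense-mediated decay, retained intron or no defined coding sequence. The noncoding share was taken over transcripts above 0.5 FPKM in at least 3 libraries and could be tested in 47 members. It rose in 6 and fell in 1 at 24 h against 0 h at an adjusted p under 0.05, beside 7.7% and 2.99% of all 5885 genes tested. The median change was 0.32 percentage points with 27 gains and 20 losses, where that of other genes was 0.65. It was 0.054 without 24 h replicate 1, 0.12 without 0 h replicate 3, 0.54 without 24 h replicate 2, 0.69 without 0 h replicate 1 and 1.04 without 24 h replicate 3, so its size rests on single libraries. None was called at 1 h or at 2 h, where 0% of all genes were. An unadjusted p under 0.05 was seen in 1 and 4 members, beside 327 and 432 of 5838 other genes. The share was lower in 37 of 47 members at 1 h (median -0.73 points) and in 34 at 2 h (-0.93), where it was lower in 3264 (median -0.23) and 3254 (-0.26) of 5838 other genes. At 24 h against 2 h, which shares the 24 h libraries, 8 members were called higher and 0 lower, beside 6.2% and 1.51% of all genes, with 39 gains and 8 losses (median 1.72 points), where 3647 of the 5838 other genes gained (1.14). In a fit of those 6 libraries alone 0 were called, with 13 at an unadjusted p under 0.05, beside 0 and 1143 of the 5838 other genes.

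The largest rise was in PRPF39. Its noncoding share was 20.9%, 28.7% and 28.95% at 0 h and 70.5%, 64.6% and 63.9% at 24 h, with values of 18.6% to 32.0% at 1 and 2 h. The difference was 40.1 points (SE 4.15, adjusted p = 0.00071), and the majority of the gene's FPKM changed from coding to noncoding. Coding FPKM fell from 15.4 ± 1.90 to 5.57 ± 1.19, and noncoding FPKM went from 5.44 ± 0.694 to 10.8 ± 0.799. In PRPF4B the share rose from 22.2% ± 1.13 to 49.7% ± 6.31 (27.5 points, adjusted p = 0.0011), with coding FPKM at 25.2 and 9.56 and noncoding FPKM at 8.78 ± 0.425 and 10.5 ± 2.62, so that the coding part differed and the noncoding part overlapped. The noncoding models of PRPF4B were largely of class code j, placed by a nonsense-mediated decay transcript as nearest reference.

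In SF3B2 the share rose from 1.68% ± 0.521 to 12.9% ± 4.78 (11.2 points, adjusted p = 0.0052), all of it in retained-intron transcripts. The 24 h libraries had 13.5%, 17.4% and 7.86%, all above the 1.33% to 2.65% of the other 9. PRPF40B, another U1-associated protein, had 5.25% ± 2.03 and 19.8% ± 5.55, but its 1 noncoding transcript, at 0.213 ± 0.0875 and 0.701 ± 0.169 FPKM, passed the filter only through the 24 h libraries. Its call was therefore partly fixed by the filter and was lost when all transcripts were counted (adjusted p = 0.067). HNRNPD rose from 1.86% ± 0.301 to 6.58% ± 0.428 (adjusted p = 0.00043) and HNRNPK from 3.25% ± 1.14 to 7.31% ± 0.551 (adjusted p = 0.0071). HNRNPUL1 went the other way, from 20.7%, 20.6% and 17.3% at 0 h to 5.94%, 4.46% and 3.18% at 24 h, with a mean of 13.5% ± 5.46 at 2 h (change -15.0 points, adjusted p = 0.016). The calls of HNRNPK, SF3B2 and PRPF40B were lost in a fit of the 6 libraries of 0 h and 24 h alone (adjusted p of 0.092, 0.084 and 0.092), and that of HNRNPUL1 without 0 h replicate 1 (adjusted p = 0.053).

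In HNRNPUL1 the whole noncoding share was one nonsense-mediated decay transcript, ENST00000595196, which fell from 17.9 ± 1.77 to 3.11 ± 0.991 FPKM while the coding FPKM stood at 73.5 ± 2.03 and 65.7 ± 5.54. HNRNPDL, known to control its own level through nonsense-mediated decay, had 87.2% ± 0.966 of its FPKM in nonsense-mediated decay transcripts at 0 h and 81.8% ± 2.85 at 24 h, a change that was not called (adjusted p = 0.078). HNRNPH1 had 36.7% ± 2.93 and 45.6% ± 2.88 (adjusted p = 0.14). Of HNRNPD, 32.6% of the FPKM lay in transcripts whose type was unknown, and these count in the total but not as noncoding.

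**Figure D4:**
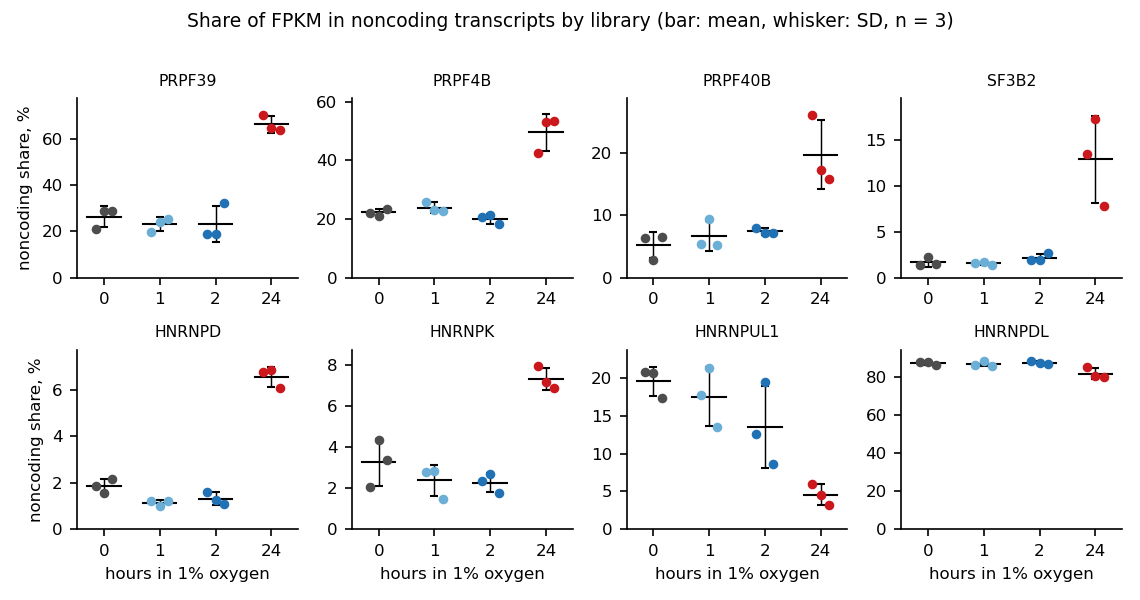
Share of FPKM in noncoding transcripts in percent (vertical axis, from 0) in each library by hours in 1% O2 (horizontal axis) for the 7 members whose share was called at 24 h (PRPF40B partly through the filter), with HNRNPDL beside them; points are libraries, the bar is the mean and the whisker the SD of 3. In PRPF39 the 24 h libraries lie between 63.9% and 70.5% and in HNRNPUL1 between 3.18% and 5.94%, apart from all other libraries, and HNRNPDL is at 79.9% or more in every library.

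Tested one by one, 129 of 454 member transcripts were called at 24 h against 0 h, 112 lower and 17 higher, beside 8.59% and 6.03% of all 62162 transcripts. Of the 17 called higher, 6 passed the filter only through the 24 h libraries and had to differ. The higher calls numbered 6 without 24 h replicate 3, 7 without 0 h replicate 1, 9 without 0 h replicate 2, 10 without 24 h replicate 2, 11 without 0 h replicate 3 and 3 in a fit of the 6 libraries alone. Those 3, of HNRNPUL1, HNRNPL and HNRNPD, were all among the 6 that had to differ. The counts are given by kind of transcript, and the difference between kinds was not tested. Of 260 coding transcripts of members 89 fell and 7 rose, where 10.3% and 6.53% of coding transcripts of other genes did. Of 84 retained-intron transcripts 3 fell and 6 rose (3.57% and 7.14%), where 3.27% and 7.06% of those of other genes did, so for this kind the members' shares were near those of other genes. Of 43 nonsense-mediated decay transcripts 9 fell and 2 rose (20.9% and 4.65%), where 6.61% and 3.56% of those of other genes did. The 6 retained-intron transcripts that rose came from 4 genes, with 2 each in SF3B2 and HNRNPL and 1 each in HNRNPD and HNRNPH1. Of these 6 calls, 3 to 6 were made as each library was left out, and 1 in the fit of the 6 libraries alone. That 1 was HNRNPL ENST00000595164, which passed the filter only through the 24 h libraries, had to differ and is in each of these counts. The lowest log2 fold change among the 6 was 0.79 over these fits. Those of HNRNPD and HNRNPH1 were lost most often, and those of SF3B2 in the fit of the 6 libraries but not on leaving out any 1 library.

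Compared with the annotation, the 2 of SF3B2 lay on the same intron, and so did the 2 of HNRNPL. The coding transcript of SF3B2 with the highest level, ENST00000322535, had 149, 143 and 140.1 FPKM at 0 h and 94.2, 76.4 and 79.3 at 24 h. ENST00000525207 runs over the 5′ border of its intron 9 and holds 198 of the 424 intron bases, and ENST00000529994 runs over the 3′ border and holds 223. The first had 0.634, 1.77 and 1.19 FPKM at 0 h and 10.6, 10.6 and 3.59 at 24 h (log2 fold change 2.28, adjusted p = 0.0017), and the second 1.61, 1.19 and 0.777 FPKM and 6.04, 7.34 and 3.51 (1.83, adjusted p = 0.0013). Both were lowest in 24 h replicate 3 among the 24 h libraries. Another SF3B2 model with ENST00000322535 as nearest reference, a coding transcript, was called higher at 24 h with limma (log2 fold change 1.70, adjusted p = 0.00068). Its adjusted p was 0.0012 to 0.0040 as each library was left out and 0.0104 in the fit of the 6 libraries alone.

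The coding transcript of HNRNPL with the highest level, ENST00000600873, fell from 187 ± 15.8 to 118 ± 10.4 FPKM. ENST00000601047 covers the 5′ border of its intron 6 with 471 of 3282 bases, and ENST00000595164 the 3′ border with 1190. The first had 1.15, 1.49 and 1.42 FPKM at 0 h and 3.35, 3.78 and 4.05 at 24 h, and the second was listed at 0 in all 3 libraries of 0 h and at 1.82, 2.52 and 1.31 at 24 h. The second passed the filter only through the 24 h libraries. In PRPF39 the retained-intron transcript ENST00000477626 spans the whole of intron 3, with 1.54, 1.43 and 1.59 FPKM at 0 h and 2.62, 4.77 and 4.47 at 24 h, which missed the threshold for single transcripts (adjusted p = 0.016). Its coding transcript ENST00000355765 fell from 15.4 ± 1.90 to 5.57 ± 1.19 FPKM. The nonsense-mediated decay transcript ENST00000424478 of PRPF39 carries an extra exon inside the same intron, splitting it into introns of 195 and 128 bases, and had 0.931 ± 0.507 and 1.64 ± 0.197 FPKM (adjusted p = 0.14).

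The borders of these introns are shown because the members named here bind them: U1 pairs with the 5′ splice site, U6 replaces it there, and U2 with SF3A and SF3B sits upstream of the 3′ splice site. The sequences were read from GRCh37, as 30 bases 5′ to 3′ on the strand of the gene, with 10 exonic bases and 20 of the intron. Capitals mark the last 3 bases of the exon and the first 6 of the intron at the 5′ border, and the last 2 bases of the intron at the 3′ border. The introns lie at chr11:65825877-65826300 on the plus strand (SF3B2), chr19:39331200-39334481 on the minus strand (HNRNPL), chr14:45565432-45566089 on the plus strand (PRPF39), chr4:83278598-83279811 and chr4:83276555-83277948 on the minus strand (HNRNPD introns 4 and 6) and chr5:179048037-179048242 on the minus strand (HNRNPH1). Only introns with both borders in coding sequence were taken, so all lie there by selection.
SF3B2 intron 9, 5′ border: taaaaagGAGGTAGGGattggagctgagtg
SF3B2 intron 9, 3′ border: ggttttcctcctcttgacAGaaaaaccgga
HNRNPL intron 6, 5′ border: agtggacAAGGTAATCttgacgaccacttt
HNRNPL intron 6, 3′ border: actgttttctctctccacAGgtgaccctgg
PRPF39 intron 3, 5′ border: atcagatGAGGTGCGTacatcactgaataa
PRPF39 intron 3, 3′ border: gtttgctgttttcttcttAGgtttatcggc
PRPF39 extra exon, its 5′ side: ttttctctctttgttggcAGgtgcgttaaa
PRPF39 extra exon, its 3′ side: cacccaaATGGTAATGgtagattatttaaa
HNRNPD intron 4, 5′ border: ttttggtGAGGTATGTtataaatgttttga
HNRNPD intron 6, 5′ border: agaggtgGTGGTAAGCtagagcctaagttt
HNRNPH1 intron 3, 5′ border: tatgttgAAGGTTTGAtttacattgcccta

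Read against the letters CAGGTAAGT, the form that pairs fully with U1 RNA, the 6 introns matched in 5 to 7 of 9 positions with a median of 6, which was also the median of 210339 annotated introns between coding exons. HNRNPH1 intron 3, with 5 matches, is in the 18.3% of such introns with 5 or fewer. Their median length was 936 bases, where that of all introns was 1677, and their median GC content 37.8% against 43.7%. With 6 introns these are descriptions without a test, and a letter count says nothing about binding.

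HNRNPH1 ENST00000514332, which keeps the 206-base intron 3, had 11.1, 12.4 and 11.5 FPKM at 0 h and 17.96, 23.7 and 23.8 at 24 h (log2 fold change 0.86, adjusted p = 0.0043), while its coding transcript ENST00000442819 had 106 ± 28.6 and 101 ± 15.8. HNRNPD ENST00000514325, which keeps introns 4 and 6, had 1.09 ± 0.161 and 3.54 ± 1.39 FPKM, and the nonsense-mediated decay transcript ENST00000508119, which joins the first exon to the fourth, 3.56 ± 0.545 and 9.15 ± 2.59 FPKM (adjusted p = 0.0037, and up to 0.018 as each library was left out). The main coding transcript of HNRNPD, ENST00000353341, fell from 227 ± 22.5 to 88.1 ± 11.9 FPKM.

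**Figure D5:**
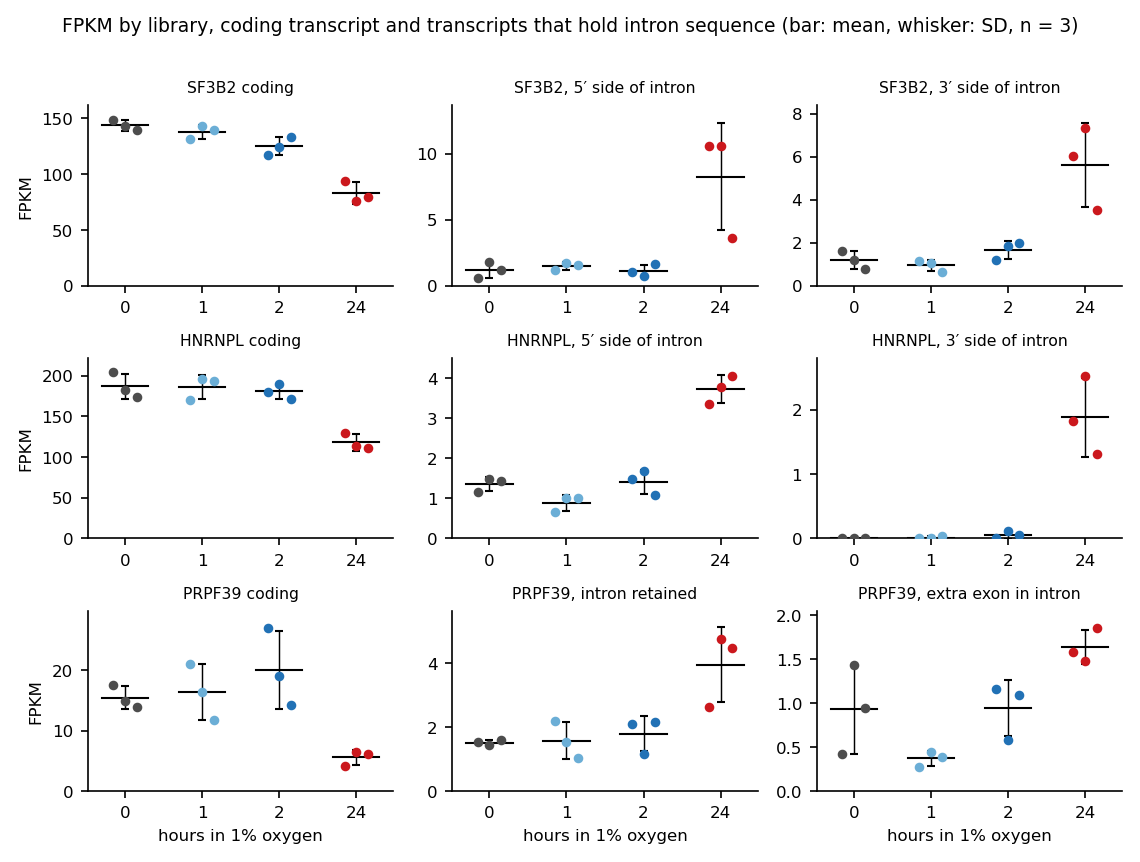
FPKM (vertical axis, from 0) in each library by hours in 1% O2 (horizontal axis) for the coding transcript and 2 transcripts that hold intron sequence in SF3B2, HNRNPL and PRPF39; points are libraries, the bar is the mean and the whisker the SD of 3. The coding transcripts are lowest at 24 h and the others highest, as in HNRNPL with 118 against 187 FPKM for the coding transcript and 3.73 against 1.35 FPKM for the one over the 5′ side of intron 6.

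In 10 members a transcript was called lower and another higher. In HNRNPA2B1, HNRNPUL1 and SF3A3 the higher one passed the filter only through the 24 h libraries. Coding isoforms of HNRNPC, like those of SF3B2, were called in both directions. In HNRNPC the transcript of ENST00000554455 fell from 244, 262 and 273 FPKM to 123, 168 and 135, and that of ENST00000555309 from 21.0 ± 2.58 to 2.52 ± 3.90 FPKM, while ENST00000555914 had 1.76, 0.267 and 2.34 FPKM at 0 h and 6.70, 19.8 and 22.9 at 24 h (log2 fold change 3.15, adjusted p = 0.0037, and up to 0.017 as each library was left out). ENST00000553300, at 166 ± 4.67 and 179 ± 17.7 FPKM, was not called (adjusted p = 0.57), so isoforms of 1 gene were called lower, called higher or not called. In HNRNPD a coding transcript of 1667 bases, nearest to ENST00000352301, was listed at 0 in the 9 libraries up to 2 h and at 9.56, 5.26 and 5.32 FPKM at 24 h, and passed the filter only through the latter, so these values are a description. In HNRNPA2B1 the main coding transcript, nearest to ENST00000356674, fell from 1384 ± 34.0 to 778 ± 53.8 FPKM, and its nonsense-mediated decay transcript ENST00000360787 fell with it, from 120 ± 6.61 to 61.3 ± 8.93.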

How the data were processed

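Strand-specific RNA-seq of polyadenylated RNA was analysed in 12 HCT116 libraries. The authors aligned reads to hg19 (GRCh37) with Mapsplice, assembled and merged transcripts with Cufflinks and deposited FPKM per transcript. The submitters' processing notes also list CASAVA 1.8.2; scaling between libraries is not given in the sources used here. FPKM of class codes = and j were summed per gene name, which can join loci. Genes above 0.5 FPKM in at least 3 libraries were tested on log2(FPKM + 0.5), which understates changes of low genes, with limma 3.58.1 in R 4.3.3 (trend, two-sided, all 12 libraries), Benjamini-Hochberg adjusted over all genes, at a threshold of 0.01. Transcripts were tested likewise. Noncoding shares in percent were tested in genes with a mean of at least 1 FPKM at each time point, at 0.05. Transcript types came from GENCODE lifted to GRCh37. Scripts were tested on simulated data. Named genes were members changed over 2-fold, the 3 largest changes and the highest level per family, those with a called share, those not tested and a list of well-known members; others named, and isoforms beyond the highest of each kind, were chosen after their values were seen. Members and lists were chosen with earlier results of these data known. Alternatives covered filters, pseudocounts, scalings, class codes, left-out libraries and a replicate block.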

Additional observations from a re-analysis of the deposited data

How the results depend on the processing

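At 24 h against 0 h between 37 and 48 members were called under every alternative but a 2-fold minimum, which left 16, against 45 as reported. At 24 h against 2 h the 44 calls became 13 with that minimum and 0 with TPM over all transcripts. Under that TPM 0.599% of all genes were lower and 3.82% higher. Fitting only the 6 libraries of the contrast called 4 noncoding shares and 68 transcripts, against 7 and 129 as reported. At 1 h and 2 h there were 0 calls under every alternative run. But TPM over all transcripts gave 55 members an unadjusted p under 0.05 at 2 h (73.4% of all genes), against 9 as reported (15.3%). Leaving out each library in turn gave 38 to 44 members at 24 h against 0 h, 40 to 44 against 2 h, 6 to 10 shares and 94 to 118 transcripts. The family medians then ranged from -0.73 to -0.57 (hnRNP), -0.98 to -0.81 (snRNP), -0.62 to -0.43 (SF3), -0.72 to -0.61 (PRPF) and -0.40 to -0.23 (LSM). With TPM over all transcripts the medians were -1.42 (hnRNP), -1.78 (snRNP), -1.32 (SF3), -1.47 (PRPF) and -1.19 (LSM), and that of all genes -0.78. Median-of-ratios scaling moved hnRNP to -0.56 and PRPF to -0.59, and a TPM without transcripts under 300 bases to -0.72 and -0.75.

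The TPM scalings moved all genes, to medians of -0.78 (all transcripts) and -0.13 (at least 300 bases) among other genes, so a sign below 0 under them does not set a member apart. Of members that were not called, HNRNPH1 had -0.80 with TPM over all transcripts, -0.047 when transcripts under 300 bases were left out of the TPM, and -0.0068 to 0.17 as each library was left out, lowest without 0 h replicate 1. SF3B1 had -0.81 and -0.041 under the same scalings and -0.038 to 0.15 as each library was left out, lowest without 24 h replicate 2. PRPF40B had -0.64 and -0.0010 under these scalings, -0.18 with the filter on single transcripts and -0.11 to 0.19 as each library was left out, lowest without 0 h replicate 1. The causes of the changes other than the scaling were not tested.

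With the replicate number as a block, 47 members were called at 24 h against 0 h (44 lower and 3 higher: HNRNPUL2, LSM14A and SF3B5 were gained and HNRNPA1 was lost), 47 against 2 h, 7 shares and 128 transcripts. The pairing rested on a shared number only: deviations of same-numbered libraries correlated at -0.083 to 0.43 over 18 pairs (10 over 0.1), and 10 of 12 libraries correlated best with their own number. What can be said of low transcripts is limited, since 3 libraries a group and no read counts were analysed here.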
